A study of Mus musculus with 56 samples.

Results

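Arntl, Clock and Npas2 encode BMAL1, CLOCK and NPAS2, the activating arm of the circadian clock. They were taken from the liver gene table by their gene identifiers and make up 3 of its 25415 rows and 3 of the 23097 genes tested. The table covers 56 livers of female C57BL/6J mice, 9 weeks old, kept on normal chow in a cycle of 12 h light and 12 h dark. Mice ate only by day (daytime-restricted feeding, DRF) or only by night (nighttime-restricted feeding, NRF) for 7 days. Livers were taken at ZT0, 4, 8, 12, 16, 20 and 24, where zeitgeber time (ZT) counts hours from lights on, with 4 mice in each of the 14 groups. Livers of mice fed without restriction were not analysed here, and the clock hours at which food was given are not stated in the sources used here.

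BMAL1 is a bHLH-PAS transcription factor that acts as a dimer with CLOCK or with its close relative NPAS2. The dimer binds E-boxes and switches on the genes of its own repressors, the Period and Cryptochrome genes, as well as those of the REV-ERB nuclear receptors. REV-ERBs repress, and ROR receptors activate, Arntl and other clock genes through a DNA element named the RORE. In a liver on its usual night feeding, Arntl mRNA is high around dawn and low around dusk.

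All 3 members lie on different chromosomes of the mouse build GRCm38. Arntl (ENSMUSG00000055116) spans chr7:113207465-113314126 on the plus strand with 7523 bases of exon. Clock (ENSMUSG00000029238) spans chr5:76209868-76304792 on the minus strand with 13727 bases of exon, and Npas2 (ENSMUSG00000026077) spans chr1:39193731-39363236 on the plus strand with 4791 bases.

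RefSeq start-site windows of GRCm38.p6, 250 bases before to 50 after each start, were given for 3 of the 3 members (2 windows for Arntl, 3 for Clock and 1 for Npas2). They were searched on both strands for the E-box CACGTG, the D-box TTATGTAA, the RORE core TAGGTCA and the longer RORE AGTAGGTNA, of which the last overlaps the core and was chosen after the Arntl windows had been read. Only Arntl held a match. The longer form occurred 2 times in Arntl and in 0.591% of all 32851 windows, and the core occurred in 2.61% of them. The E-box letters were in 7.15% of all windows and the D-box letters in 0.938%, and in no window of the 3 members. The Arntl stretches are shown because the REV-ERB and ROR genes are described further on. Both lie on the plus strand of chromosome 7 just after the annotated start of the gene, 38 and 74 bases downstream of it, with the motif in capitals, and a match of letters is a description and not a bound site.
Arntl, chr7:113207493-113207522: ttggtcggaaAGTAGGTTAgtggtgcgaca
Arntl, chr7:113207529-113207558: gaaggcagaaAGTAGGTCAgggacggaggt

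Values are scaled counts, the linear quantity recovered from the deposited gene values. Across the 56 libraries 1 scaled count stands for 303.9 to 723.0 recovered counts, and the recovered counts were 574 to 53362 for Arntl, 13375 to 78171 for Clock and 5 to 7028 for Npas2. Pairwise correlations of the log2 values between livers of 1 group were 0.977 to 0.990. Of the 6 hepatocyte markers listed (Alb, Apoa1, Ttr, Serpina1c, Cyp2e1 and Tat), 6 were above 0 in every library. Markers of Kupffer cells, sinusoidal endothelium, stellate cells, bile duct cells and lymphocytes were also above 0 in every library. The summed scaled counts of 5 Kupffer markers ranged from 508 to 890 under DRF and from 490 to 1171 under NRF, and those of 5 endothelial markers from 338 to 461 and from 343 to 475. The bile duct markers Krt19, Krt7 and Sox9 summed to 2.56 to 6.25 under DRF and 2.46 to 8.34 under NRF. Stellate cell markers summed to 581 to 854 and 604 to 815, lymphocyte markers to 0.516 to 1.89 and 0.535 to 2.61, and Cidec, the 1 adipocyte marker of 3 in the table, had 0.147 to 2.25 and 0.0990 to 1.32. The rhythm differed between the regimens in 3 of these 3 bile duct markers, 3 of 5 endothelial, 1 of 5 Kupffer cell, 0 of 5 stellate cell and 0 of 4 lymphocyte markers, in Cidec and in Tat, the 1 hepatocyte marker with scaled counts, against 38.6% of all genes. The part of these cells in the results was not tested, and in whole liver fewer cells of a type and less RNA per cell cannot be told apart.

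Arntl ran nearly opposite courses in the regimens. Under NRF the 4 livers at ZT0 had 81.8, 71.6, 76.2 and 68.1 scaled counts, and those at ZT12 had 1.41, 1.53, 1.07 and 1.49. Under DRF the same times gave 7.65, 6.29, 6.32 and 6.82, and 55.7, 52.1, 62.2 and 59.4. The high group of each time was the low group of the other, with no overlap between the 4 DRF and 4 NRF livers.

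Under NRF the group means of Arntl ran from 1.38 ± 0.209 (SD, n = 4) at ZT12 to 75.01 ± 4.13 at ZT24, a ratio of 54.5. Between them, the 4 livers at ZT16 had already reached 28.2 to 42.1, and those at ZT20 stood at 69.8 to 77.9. The high level lasted from ZT20 to ZT24 and through ZT0, the fall followed between ZT4 (42.04 to 66.5) and ZT8 (2.73 to 6.72), and the trough was short. Under DRF the means ran from 6.77 ± 0.636 at ZT0 to 60.1 ± 7.41 at ZT16, a ratio of 8.88. The DRF plateau covered ZT8 (51.1 to 60.4), ZT12 and ZT16 (55.6 to 71.2). At ZT20 the DRF livers were down to 19.8, 21.9, 17.2 and 7.95, and at ZT24 to 9.10 to 11.9. No DRF liver came as low as the NRF livers at ZT12.

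Clock moved less steeply. Under NRF the 4 livers at ZT24 had 126, 146, 109 and 131 scaled counts and those at ZT12 had 35.2, 26.7, 24.97 and 34.9. The ratio of these group means, 128 ± 15.4 and 30.5 ± 5.36 (SD, n = 4), was 4.21. Under DRF the livers at ZT12 had 121, 125, 126 and 122 and those at ZT0 had 53.0, 33.9, 43.6 and 43.3, with means of 123 ± 2.23 and 43.5 ± 7.80 and a ratio of 2.84. DRF livers held a high Clock level late, with 95.9 to 110 at ZT20, when their Arntl level had dropped.

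Npas2, which can take the place of CLOCK in the dimer, was the scarcest and the most variable. Under NRF the livers at ZT0 had 5.84, 7.28, 7.33 and 7.52 scaled counts, those at ZT24 had 5.73, 5.18, 7.34 and 12.3, and those at ZT12 had 0.0735, 0.0778, 0.0523 and 0.00950. The ZT12 values rest on 5 to 52 recovered counts, and the number of reads behind these is not known. The ratio of the highest to the lowest NRF mean was 143, and under DRF, between ZT12 (3.25 to 4.01) and ZT20 (0.225 to 0.492), it was 10.6. At its DRF peak Npas2 stayed below the NRF livers of ZT0 and of ZT24.

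**Figure D1:**
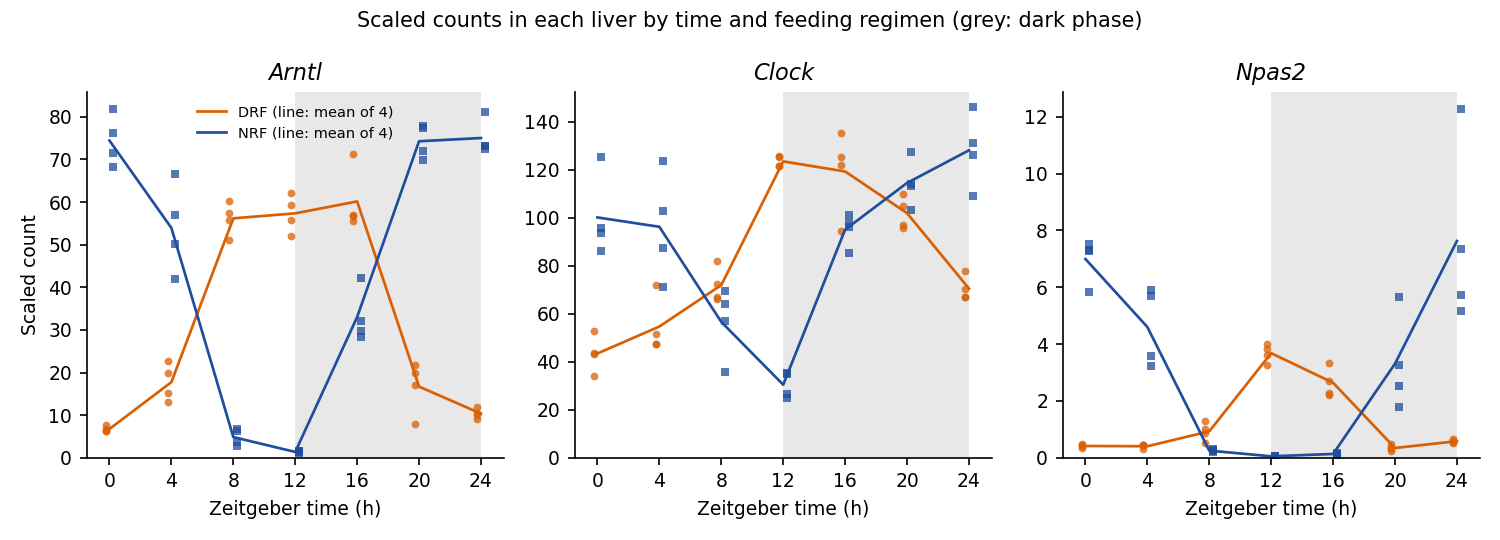
Scaled counts of Arntl, Clock and Npas2 (vertical axes) by zeitgeber time in hours, with 1 point per liver and lines through the means of 4 livers. Arntl and Npas2 of DRF livers are high at ZT12, where NRF livers are lowest, and Clock under DRF falls later than Arntl.

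Each member had a rhythm of 24 h in each regimen. The rhythm test (limma, F test of the cosine and sine terms on log2(scaled count + 0.1), Benjamini-Hochberg adjusted over 23097 genes) called 3 of 3 members under DRF, where 38.2% of all genes were called, and 3 of 3 under NRF, where 38.7% were. The fitted log2 distance from trough to peak of Arntl was 3.13 under DRF (adjusted p = 1.8e-10) and 5.35 under NRF (adjusted p = 3.7e-09). For Clock it was 1.40 (adjusted p = 2.2e-07) and 1.63 (adjusted p = 3.2e-06). For Npas2 it was 2.78 (adjusted p = 4.6e-07) and 6.09 (adjusted p = 5.1e-15). The rhythm also differed between the regimens in 3 of 3 members, against 38.6% of all genes, with adjusted p values of 9.5e-19 for Arntl, 2.4e-11 for Clock and 1.3e-23 for Npas2 (limma).

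The peaks show by how much each gene was displaced. A cosine curve of 24 h fitted to the scaled counts put the Arntl peak at 12.1 h ± 0.26 (SE, n = 28 livers) under DRF and at 22.7 h ± 0.18 under NRF, so that the DRF peak was 10.6 h earlier (95% interval 9.91 to 11.2 h). The Clock peak lay at 14.9 h ± 0.42 under DRF and at 22.4 h ± 0.44 under NRF, a displacement of 7.46 h (95% interval 6.24 to 8.67 h). The Npas2 peak lay at 13.3 h ± 0.92 and at 0.397 h ± 0.35, a displacement of 11.1 h (95% interval 9.16 to 13.1 h). The interval of Clock does not reach 12 h, nor does that of Arntl, while that of Npas2 includes it. For comparison, the 5180 genes called rhythmic in both regimens had a median displacement of 8.20 h.

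**Figure D2:**
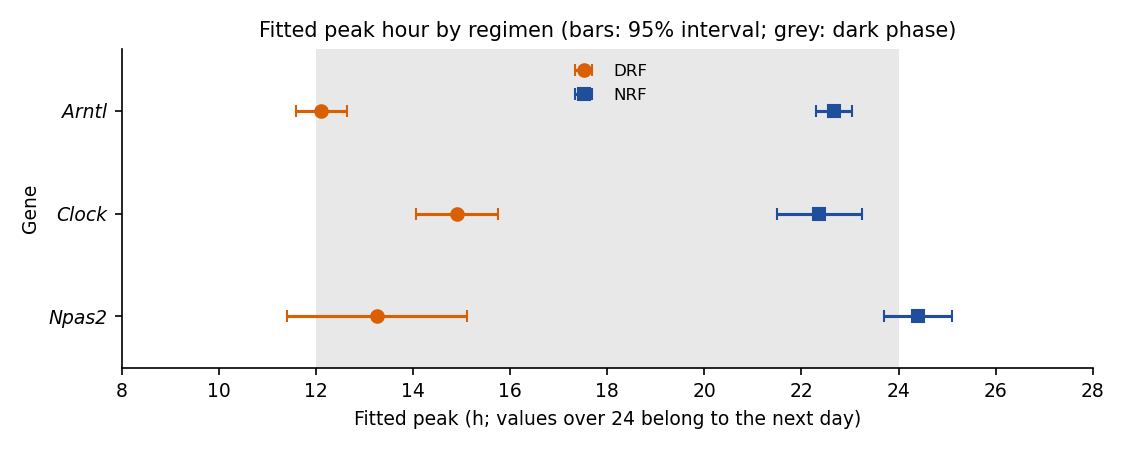
Fitted peak hour (horizontal axis, hours; values over 24 belong to the next day) of each gene under DRF and NRF, with 95% intervals as bars. Under NRF the Arntl and Clock peaks sit at 22.7 and 22.4 h, and under DRF they sit apart at 12.1 and 14.9 h.

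The order of the fitted peaks differed between the regimens. Under NRF the Clock peak fell 0.297 h before that of Arntl, with a 95% interval of the lag from -1.27 to 0.675 h that includes 0. Under DRF the fitted Clock peak fell 2.80 h ± 0.44 (SE) after that of Arntl (1.89 to 3.71 h). The difference between these lags was 3.10 h ± 0.65 (1.801 to 4.39 h). The highest group means, from livers taken 4 h apart, did not follow this order, but several of them barely exceeded other groups. Under DRF Clock and Npas2 were highest at ZT12 and Arntl at ZT16, and under NRF all 3 were highest at ZT24. Arntl means were 57.3 ± 4.36 (SD, n = 4) at DRF ZT12 and 60.1 ± 7.41 at DRF ZT16. Under NRF they were 74.3 ± 4.05 at ZT20, 74.4 ± 5.92 at ZT0 and 75.01 ± 4.13 at ZT24. Npas2 means were 6.99 ± 0.775 at NRF ZT0 and 7.63 ± 3.22 at NRF ZT24, so no order is read from these ranks. The lag of Npas2 behind Arntl was 1.15 h (-0.0190 to 2.31 h) under DRF and 1.73 h (0.780 to 2.69 h) under NRF, and its difference, -0.586 h ± 0.73, had an interval across 0 (-2.06 to 0.884 h). The fitted Npas2 peak lay 1.65 h before that of Clock under DRF and 2.03 h after it under NRF, a difference of -3.68 h ± 0.93 (-5.54 to -1.82 h). The intervals of the lags take in the shared livers of each pair of genes. Each lag within a regimen uses the spread of that regimen alone, unlike the errors of the peak hours.

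Amplitudes were smaller under DRF in 2 of the 3 genes. The amplitude, the height of the fitted curve above its mean, was 29.4 scaled counts under DRF and 40.8 under NRF for Arntl, a difference of -11.4 ± 2.52 (SE; adjusted p = 0.0026, cosinor contrast over all genes, n = 28 and 28 livers). For Npas2 it was 1.47 and 3.92, a difference of -2.45 ± 0.45 (adjusted p = 0.00035, same contrast over all genes). Clock had 39.6 and 39.5, a difference of 0.0715 ± 6.00 (adjusted p = 0.998 by the same contrast). Over all genes the amplitude was called different in 5.99%, lower under DRF in 4.32% and higher in 1.68%. The fitted mean over the day was lower under DRF for Npas2 alone, 1.49 against 2.73 scaled counts (difference -1.24 ± 0.34, adjusted p = 0.016), where 6.31% of all genes were called, 2.55% lower and 3.76% higher. On the log2 scale the Npas2 difference in means turned to 0.12 ± 0.15 (adjusted p = 0.74). The means were 36.4 under DRF and 39.8 under NRF for Arntl (adjusted p = 0.31) and 87.7 and 83.6 for Clock (adjusted p = 0.65). The Arntl difference in means, -3.41 scaled counts, also had the other sign on the log2 scale, 0.53 ± 0.19 (adjusted p = 0.094), and with the deposited values, 2.25 ± 0.91 (adjusted p = 0.15), so that no direction is given for it.

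A 12-h term fitted beside the daily cosine was called in 1 regimen for each member. Such a term also takes up a daily curve that is not a plain cosine, so a call does not show a second daily peak. The fitted 12-h component of Arntl spanned 2.27 log2 units under NRF (limma, adjusted p = 1.8e-07), where 0.749% of all genes were called, and 0.62 under DRF (adjusted p = 0.11). Npas2 was called in the other regimen, 1.44 under DRF (adjusted p = 9.7e-05), where 6.89% of all genes were called, and 0.12 under NRF (adjusted p = 0.99). With 1 added in place of 0.1 these were 0.86 (adjusted p = 1.0e-05) and 0.37 (adjusted p = 0.67), and with the deposited values the NRF value was 0.98 (adjusted p = 0.20). Clock had 0.77 under NRF (adjusted p = 0.043), a p that was 0.054 with a replicate block and over the threshold when any of 17 NRF livers was left out, up to 0.102 without the third of ZT12, and 0.12 under DRF (adjusted p = 0.90). Whether the component differed between the regimens was not tested. Without the DRF liver of ZT20 with 7.95 scaled counts, the Arntl component under DRF was 0.75 (adjusted p = 0.0070).

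At equal zeitgeber times the members were compared directly. Arntl and Npas2 differed between the regimens at 7 of 7 times, lower under DRF at ZT0, ZT4, ZT20 and ZT24 and higher at ZT8, ZT12 and ZT16. Clock differed at 4 of 7 times, lower at ZT0, ZT4 and ZT24 and higher at ZT12. The shares of all genes called at these times were 15.6%, 20.5%, 12.6%, 15.4%, 15.5%, 14% and 13.9% in the order of the times. The 4 DRF and 4 NRF livers did not overlap in 7 of 7 times for Arntl and for Npas2, which held for 0.485% of all genes, and in 3 of 7 times for Clock, where the shares of all genes that did not overlap were 19.4%, 22.6%, 18.1%, 16.1%, 16%, 17.7% and 16.7% in the order of the times.

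For Arntl and Clock the difference at ZT12, dusk, was the widest of the 7. At ZT12 the mean of Arntl was 41.7 times as high under DRF as under NRF (log2 difference 5.29 ± 0.21 SE, limma adjusted p = 2.3e-23), that of Npas2 69.1 times (4.65 ± 0.24, adjusted p = 5.1e-19) and that of Clock 4.05 times (2.03 ± 0.16, adjusted p = 1.5e-13). The log2 value of Npas2 depends on the added 0.1, since its NRF livers lie below 0.1 scaled counts. With 1 added it was 2.15 at ZT12, below the size of its differences at ZT0 (-2.49) and ZT24 (-2.38). At ZT0 the order was turned, with NRF means 10.99 times as high for Arntl (log2 -3.44 ± 0.21, adjusted p = 8.9e-17), 16.8 times for Npas2 (-3.78 ± 0.24, adjusted p = 4.2e-16) and 2.30 times for Clock (-1.21 ± 0.16, adjusted p = 1.4e-07). At ZT16 the livers of Arntl lay closest, at 55.6 to 71.2 under DRF and 28.2 to 42.1 under NRF (log2 0.87 ± 0.21, adjusted p = 0.0024). Clock had log2 differences of 0.38 ± 0.16 at ZT8 (adjusted p = 0.11), 0.32 ± 0.16 at ZT16 (adjusted p = 0.18) and -0.17 ± 0.16 at ZT20 (adjusted p = 0.59), with overlapping livers each time. Without the second NRF liver of ZT8 the first of these was 0.50 (adjusted p = 0.044).

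To ask how far the profiles were turned by a full 12 h, DRF livers were set against NRF livers of 12 h away. If the profiles were the same apart from that turn, these differences would be near 0, and 11 of 18 were called. The shares of all genes called in the 6 pairs were 2.61% (DRF ZT0 with NRF ZT12), 15.4% (ZT4 with ZT16), 11.7% (ZT8 with ZT20), 1.48% (ZT12 with ZT24), 17.4% (ZT16 with ZT4) and 16.1% (ZT20 with ZT8). How many of all genes had livers without overlap in these pairs was not counted, so overlap is given below as a description only.

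At DRF ZT0 with NRF ZT12, Arntl and Npas2 were higher under DRF. These are the lowest groups of Arntl and Clock, while the lowest DRF group of Npas2 was ZT20. Arntl at DRF ZT0 was 4.92 times as high as at NRF ZT12 (log2 2.23 ± 0.21, limma adjusted p = 1.1e-09) and Npas2 7.82 times (1.77 ± 0.24, adjusted p = 1.8e-05), with no overlap between livers. With 1 added in place of 0.1 the Npas2 value was 0.43 (adjusted p = 0.20). Clock was 1.43 times as high (0.51 ± 0.16, adjusted p = 0.072), with overlapping livers, and passed the threshold under several alternatives (adjusted p = 0.020 with a length correction). With the DRF livers of ZT24 in place of those of ZT0, Clock was 2.32 times as high (log2 1.22, adjusted p = 1.2e-06).

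On the rising side Clock was lower under DRF in both pairs and Arntl in the first. Arntl at DRF ZT4 had 15.3, 13.0, 19.96 and 22.8 scaled counts and at NRF ZT16 28.2, 29.7, 32.0 and 42.1, the NRF mean being 1.86 times as high (log2 -0.91 ± 0.21, limma adjusted p = 0.0025). At DRF ZT8 with NRF ZT20 Arntl had -0.40 ± 0.21 (limma adjusted p = 0.22), although its livers did not overlap. Clock was 1.74 times as high at NRF ZT16 as at DRF ZT4 (-0.82 ± 0.16, adjusted p = 0.00052) and 1.59 times as high at NRF ZT20 as at DRF ZT8 (-0.67 ± 0.16, adjusted p = 0.0041). Npas2 went the other way in the first of these pairs, 2.98 times as high at DRF ZT4 (1.097 ± 0.24, adjusted p = 0.0018, and 0.23 with 1 added in place of 0.1), and in the second was 3.56 times as high at NRF ZT20 (-1.66 ± 0.24, adjusted p = 2.2e-05).

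At the peak the pairs were closer. Arntl at DRF ZT12 and NRF ZT24 had log2 -0.39 ± 0.21 (limma adjusted p = 0.41) although the livers did not overlap, at 52.1 to 62.2 and 72.5 to 81.2. Clock had -0.05 ± 0.16 (adjusted p = 0.94) and Npas2 -0.95 ± 0.24 (adjusted p = 0.033), which became -0.70 (adjusted p = 0.24) without the NRF liver of ZT24 at 12.3. On the falling side, at DRF ZT20 and NRF ZT8, Arntl was 3.43 times as high under DRF (1.75 ± 0.21, adjusted p = 1.4e-07) and Clock 1.801 times (0.89 ± 0.16, adjusted p = 8.8e-05). Npas2, whose lowest DRF group was ZT20, had 0.31 ± 0.24 there (limma adjusted p = 0.46). At DRF ZT16 and NRF ZT4 the limma differences were 0.17 ± 0.21 for Arntl, 0.33 ± 0.16 for Clock (adjusted p = 0.64 and 0.16) and -0.75 ± 0.24 for Npas2 (adjusted p = 0.027, and 0.10 without the first NRF liver of ZT4).

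**Figure D3:**
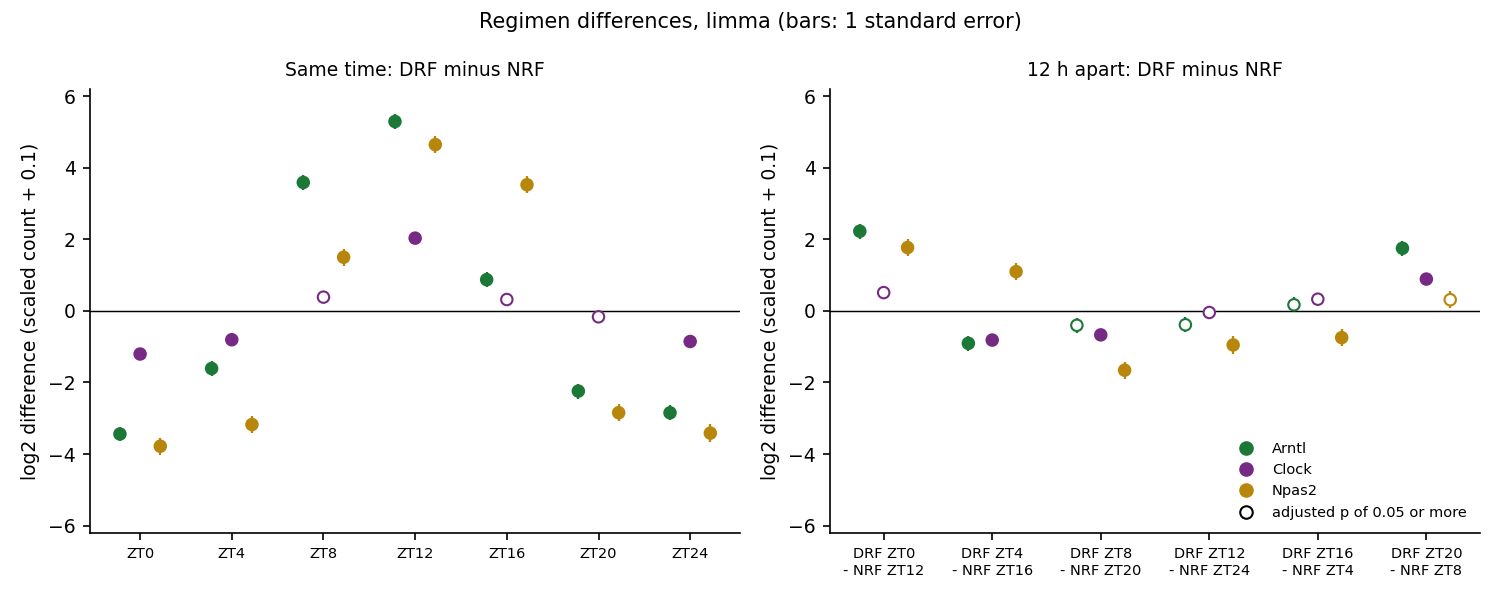
Differences in log2(scaled count + 0.1), DRF minus NRF, at equal times (left) and 12 h apart (right), with bars of 1 standard error and open points where the adjusted p is 0.05 or more. Arntl and Npas2 reach 5.29 and 4.65 at ZT12, and in the right panel the points of DRF ZT0 with NRF ZT12 lie above 0.

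ZT0 and ZT24 are the same clock hour in livers taken 24 h apart. Clock was higher at ZT24 than at ZT0 under DRF, 77.8, 67.0, 70.4 and 66.8 against 53.0, 33.9, 43.6 and 43.3 scaled counts (log2 0.71 ± 0.16, limma adjusted p = 0.0092; 0.052 without the second DRF liver of ZT0), where 3.24% of all genes were called. Under NRF, where 8.17% were called, its difference was 0.36 ± 0.16 (adjusted p = 0.17). Arntl had 0.61 ± 0.21 under DRF (adjusted p = 0.093) and 0.01 ± 0.21 under NRF, and Npas2 had 0.41 ± 0.24 and 0.05 ± 0.24. The test of the difference between the regimens gave adjusted p values of 0.85 for Arntl, 0.92 for Clock and 0.98 for Npas2.

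Levels of different genes were compared as scaled counts per kb of exon, where all annotated exons of a gene count toward its length. These lengths were 7523 bases for Arntl and 13727 for Clock, while the coding forms Arntl-201 and Clock-201 have 2908 and 7478. Ratios between genes, and the livers or hours at which 1 gene exceeds another, depend on the length used. Npas2 was the lowest in 56 of 56 livers. Clock exceeded Npas2 by a ratio of 3.73 to 1282, with a median of 36.6 under DRF and 14.8 under NRF. Arntl exceeded Clock in 5 of 28 DRF livers and in 12 of 28 NRF livers.

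The balance between the mRNAs of Clock and Npas2, which encode the possible partners of BMAL1, moved with time. Protein was not measured. Of the summed Clock and Npas2 level per kb, Npas2 made up 17.0% ± 3.54 (SD, n = 4) at NRF ZT0, 14.5% ± 5.28 at NRF ZT24 and 0.408% ± 0.0730 at NRF ZT16. Under DRF its share was highest at ZT12, 7.87% ± 0.66, and lowest at ZT20, 0.952% ± 0.25. The ratio of Clock to Arntl per kb averaged 12.2 (9.55 to 13.7) at NRF ZT12 and 0.736 (0.620 to 0.839) at NRF ZT0. Under DRF it averaged 3.50 (2.96 to 3.80) at ZT0, 0.702 (0.640 to 0.744) at ZT8 and 3.84 (2.75 to 6.61) at ZT20. Under NRF the ratio also averaged 6.69 at ZT8 and 1.60 at ZT16. NRF livers thus had a mean surplus of Clock over Arntl mRNA per kb from ZT8 to ZT16, widest at dusk. DRF livers had one from ZT20 to ZT4, where the ratio averaged 1.71. Their averages at ZT12 (1.19) and ZT16 (1.09) were near 1. Whether an average near 1 is a surplus depends on the exon lengths used. Every DRF mean of the ratio lay below the NRF means of ZT8 and ZT12.

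**Figure D4:**
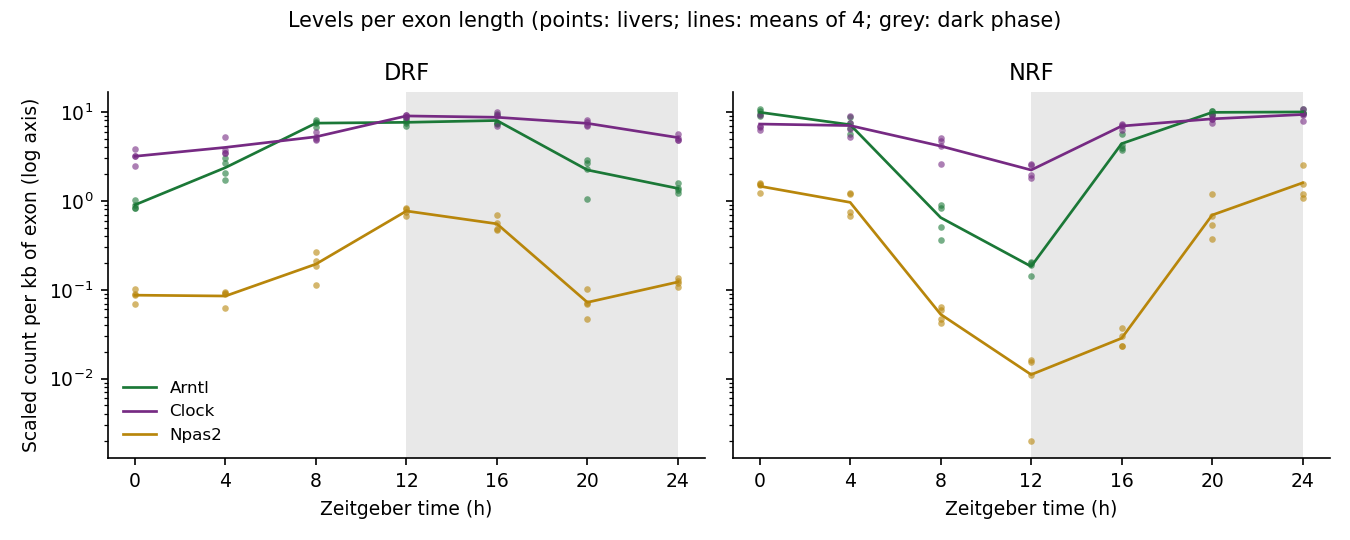
Scaled counts per kb of exon on a log axis by zeitgeber time in hours, for DRF (left) and NRF (right), with 1 point per liver and lines through the means of 4. Npas2 is the lowest gene throughout, and Arntl crosses Clock in both regimens at the exon lengths used.

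Within groups, livers that were high in Arntl tended to be high in Clock. The deviation of each liver from its group mean, on the log2 scale, correlated between Arntl and Clock at Pearson r = 0.56 and Spearman rho = 0.51 over 56 livers (permutation p = 7e-05 and 0.00029 with 100000 permutations within groups, 0.00021 and 0.00087 adjusted over 3 pairs). Between Arntl and Npas2 r was 0.40 and rho 0.42 (permutation p = 0.00051 and 0.0029, adjusted 0.00076 and 0.0043). Clock and Npas2 had r = 0.10 and rho = 0.14 (permutation p = 0.49 and 0.36, unchanged by the adjustment). Without the 2 livers farthest from the median of the first gene, r was 0.52, 0.35 and 0.12. Within the regimens Arntl and Clock gave 0.47 under DRF and 0.65 under NRF, Arntl and Npas2 0.47 and 0.36, and Clock and Npas2 0.48 and -0.09. Under DRF the value of Arntl and Npas2 went to 0.22 without its 2 farthest livers. Deviations of this kind carry any shared error of a library as well as the animal.

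Over the 14 group means of log2 values, the members correlated at 0.88 (Arntl and Clock), 0.82 (Arntl and Npas2) and 0.74 (Clock and Npas2), as a description over groups that share the same 2 regimens. The 5 genes most like each member among 12900 genes of a mean scaled count of at least 1 were taken by the same measure, and no member was among them. The names depend on the scale: with the deposited values 4 of the 5 most like and 0 of the 3 least like genes were shared for Arntl, 1 and 1 for Clock, and 2 and 1 for Npas2. For Arntl they were Gm45355 (r = 0.985), 5033403H07Rik (0.972), Lgalsl (0.970), Ddc (0.969), which encodes aromatic amino acid decarboxylase, and Gfod2 (0.961). The least like were Ube2q1 (-0.966), Rnf19b (-0.956) and Slc5a6 (-0.953). For Clock the most like were Insig2 (0.943), an anchor of the sterol sensor in the endoplasmic reticulum, Trim2 (0.930), Zfp937 (0.930), Rab32 (0.923) and Pnp (0.920), a purine phosphorylase. The least like were Fdx1 (-0.954), Slc38a3 (-0.945) and Gm5129 (-0.939). For Npas2 the most like were Gm20428 (0.973), Ethe1 (0.924), Pdgfc (0.917), Rnf144a (0.910) and Loxl4 (0.907), and the least like were Pabpc1 (-0.960), Por (-0.928), the electron donor of cytochromes P450, and Gm17597 (-0.926).

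The top names of Arntl and Npas2 are neighbours in a literal sense. Gm45355 lies inside the span of Arntl on the opposite strand, sharing 33 bases of exon, and Gm20428 is a pseudogene inside the span of Npas2 on the opposite strand. The 33 bases are 0.439% of the exon bases of Arntl, and Npas2 shares no exon bases with another gene. Whether the counting used strand is not stated in the sources used here. Reads counted to the inner genes therefore cannot be told apart from reads of their hosts' introns. GENCODE places 5 genes wholly inside the members. Gm45355 had a mean of 4.17 scaled counts, with a DRF peak at 12.0 h ± 0.48 and an NRF peak at 23.3 h ± 0.37, and Gm20428 had 1.07, with peaks at 12.7 h ± 1.06 and 0.870 h ± 0.43. Gm3617 inside Npas2 (0.0127 scaled counts on average) correlated with its host at 0.87, and Ube2n-ps1 and Gm43658 inside Clock (0.666 and 0.238) at 0.57 and 0.75.

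Single transcripts were read from a separate table, in which 41.99% of the checked values lay within 2% of the curve that links values to gene counts, so no transcript level is given. Of the transcripts annotated to the members, 13 were in the table. The rhythm test (limma over 56526 transcripts, adjusted p under 0.05) called the coding form Arntl-201 in both regimens, with a DRF peak at 13.6 h ± 0.64 and an NRF peak at 22.2 h ± 0.55, beside 11.6% of all transcripts under DRF and 11.4% under NRF. The coding forms Clock-201, Clock-204 and Clock-205 were called in both regimens, with DRF peaks at 15.5, 14.4 and 15.6 h and NRF peaks at 22.2, 22.4 and 23.5 h. Their displacements, 6.66 h ± 0.75, 7.996 h ± 0.91 and 7.89 h ± 0.91, lay on either side of that of the gene. The retained-intron form Clock-206 had its peaks at 12.3 h ± 1.24 (DRF) and 22.01 h ± 0.93 (NRF). Arntl-202, Arntl-203 and Clock-203 were also called in both regimens, Arntl-206 and Clock-202 under NRF alone and Arntl-205 in neither. With the deposited values Clock-201 was not called under NRF (adjusted p = 0.31) nor Clock-203 under DRF (adjusted p = 0.058), and Arntl-205 was called under NRF (adjusted p = 0.016). Npas2-201 and Npas2-203 were called in both regimens with displacements of 10.997 h ± 0.95 and 11.7 h ± 1.14.

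Listed targets of the dimer were displaced by about as much as Arntl. All 14 listed E-box targets were called rhythmic under DRF and under NRF, with a rhythm difference in 14 (38.2%, 38.7% and 38.6% of all genes), and displacements of 10.2 to 11.9 h around a median of 10.98 h (8.20 h for all genes rhythmic in both). Their amplitude was called lower under DRF in 4 (Cry1, Tef, Bhlhe41 and Nampt), against 4.32% of all genes, and higher in none. Dbp, a transcription factor of the D-box family, had its fitted peak at 23.96 h (DRF) and 10.2 h (NRF), with highest group means of 38.9 ± 2.90 (SD, n = 4) at DRF ZT0 and 47.3 ± 8.73 at NRF ZT12. Per2 peaked at 3.97 h and 16.1 h, with highest means of 92.3 ± 6.00 at DRF ZT4 and 96.3 ± 13.2 at NRF ZT16. Cry1, the late repressor, peaked at 9.02 h and 19.5 h, a displacement of 10.5 h ± 0.43.

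Of the receptors that act on the RORE, Nr1d1 and Nr1d2 were rhythmic in both regimens. Nr1d1 (REV-ERB alpha) had its highest mean at DRF ZT20, 29.1 ± 12.7 (SD, n = 4), and at NRF ZT8, 83.5 ± 4.70, and its amplitude was lower under DRF (13.8 against 39.6, adjusted p = 0.00021 by the cosinor contrast over all genes). Nr1d2 (REV-ERB beta) was displaced by 11.03 h ± 0.40. Rora was called under DRF with a log2 range of 0.44 (limma adjusted p = 0.00022), and had 0.15 under NRF (adjusted p = 0.41). In the highest Nr1d1 groups Arntl had just dropped, to 7.95 to 21.9 at DRF ZT20 and 2.73 to 6.72 at NRF ZT8. Nr1d2 had its highest means later, 177 ± 17.9 at DRF ZT24 and 215 ± 45.0 at NRF ZT12. Arntl was then at 9.10 to 11.9 and 1.07 to 1.53. A link between these receptors and Arntl was not tested.

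The median ranges of cofactors and relatives of the dimer lay slightly below those of all genes. Of 15 listed cofactors and modifiers 14 were tested, 7 were rhythmic under DRF, 7 under NRF and 5 differed in rhythm, beside 38.2%, 38.7% and 38.6% of all genes, with a median log2 range of 0.29 and 0.30 (0.32 and 0.37 over all genes). Those that differed were Kat2b, Csnk1d, Btrc, Ogt and Cipc. Kat2b, a histone acetyltransferase, was displaced by 7.81 h ± 0.91, and Cipc, an inhibitor of CLOCK, had an amplitude of 0.715 under DRF and 5.44 under NRF (adjusted p = 0.0045 by the cosinor contrast over all genes). Of 16 bHLH-PAS relatives 9 were tested, and 3 were rhythmic under DRF, 4 under NRF and 4 differed (Arnt, Hif1a, Ahr and Ncoa2), beside the same shares of all genes. The counts of both lists lie near those shares. The relatives had a median log2 range of 0.24 under DRF and 0.30 under NRF. Arntl2, the nearest relative of Arntl, had a mean of 0.655 scaled counts and was called in neither regimen (limma adjusted p = 0.49 and 0.11).

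**Figure D5:**
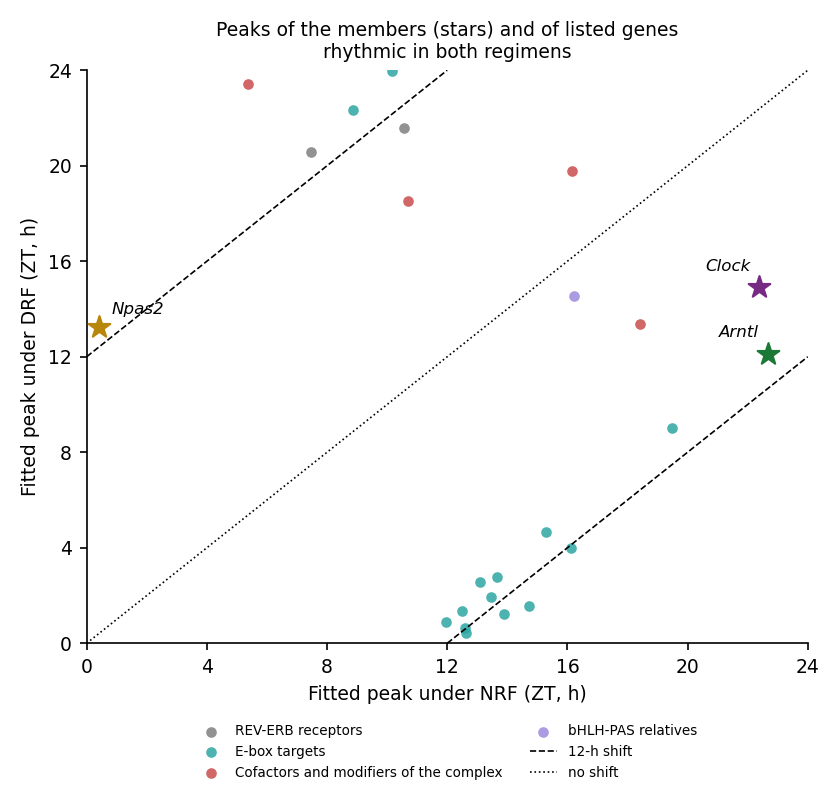
Fitted peak under DRF (vertical, ZT in hours) against fitted peak under NRF (horizontal) of the 3 members, drawn as stars, and of the listed genes called rhythmic in both regimens, ROR genes left out. E-box targets, displaced by 10.2 to 11.9 h, lie near the dashed lines of a 12-h displacement, and Clock, displaced by 7.46 h, lies farther from them.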

How the data were processed

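Liver RNA was depleted of ribosomal RNA and sequenced from strand-specific libraries. The submitters' processing notes name CASAVA 1.8, featureCounts 1.5.0-p3 and mm10/GRCm38.p6, and the authors deposited gene and transcript tables named TPM. The deposited gene values were treated as a score: times exon length (GENCODE vM21), they follow a logarithm of whole-number counts with 2 constants per library. The counts were recovered (100% of the members' values whole within 0.05) and expressed as scaled counts. Whether 1 step is 1 read is not stated in the sources used here, and recovered totals were 166 M to 378 M per library. These totals are above the average reads per sample that the paper gives over its tissues. A recovered count is therefore not taken as 1 read. Tests covered 23097 genes. Genes whose steps were not whole (737) or too deep to judge (413), and 1147 loci without an Ensembl identifier, were left out.

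Groups came from sample titles. Rhythms and contrasts were tested with limma 3.58.1 in R 4.3.3 on log2(scaled count + 0.1), and peaks and amplitudes with linear cosinor fits. The p-values were Benjamini-Hochberg adjusted over all genes. Simulated log2 values, with the same spread at all times, were used to check the rhythm tests, the contrast at ZT8 and the displacement of peaks. Amplitudes, and cosinor fits to linear scaled counts of unequal spread, were not checked by simulation. Named genes are the members, 4 pathway lists, and the 5 most and 3 least like genes per member. Members and lists were chosen with earlier results of these data known. Livers share a replicate number only by label. Alternatives were the deposited values, another pseudocount, scaling, length correction, filter, block, leaving out libraries, a rank test and its Fisher combination. Circular RNAs were not used because their identifiers carry no coordinates. 1 listed receptor gene is not reported here.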

Additional observations from a re-analysis of the deposited data

Results flagged for a closer look

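In 42 sets of 4 livers (3 genes in 14 groups), 4 had a liver far from the other 3 by Dixon's criterion, where chance gives about 1 in 20. Arntl was 71.2 scaled counts in the first DRF liver of ZT16, against 55.6 to 56.9 in the others, and 81.2 in the fourth NRF liver of ZT24, against 72.5 to 73.2. Npas2 was 0.297 in the third DRF liver of ZT4, against 0.434 to 0.456, and 5.84 in the first NRF liver of ZT0, against 7.28 to 7.52. No rhythm call of a member changed without any 1 of these livers.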

How the results depend on the processing

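Across 195 fits each, the members' rhythm under DRF, rhythm under NRF and rhythm difference were called every time, with a highest adjusted p of 9.8e-05 (limma). For the rhythm within 1 regimen, the fits that left out a liver of the other regimen repeat the same data and add no check. The rank test and its Fisher combination called 3 of 3 members in both regimens. With deposited values, which compress high levels, the displacement was 10.1 h for Arntl and 6.46 h for Clock, the Arntl difference at ZT16 was 0.21 (adjusted p = 0.12), the Npas2 differences at DRF ZT12 with NRF ZT24 and DRF ZT16 with NRF ZT4 were -0.46 and -0.34 and the Npas2 mean difference was -1.79 (adjusted p = 0.47, 0.40 and 0.23), the 12-h component of Clock under NRF was 0.19 (adjusted p = 0.28), and ZT24 minus ZT0 was called for Arntl under DRF (0.30) and Clock under NRF (0.18). On the log2 scale the Npas2 mean difference turned to 0.12. With 1 added, the Npas2 differences at DRF ZT0 with NRF ZT12 and DRF ZT4 with NRF ZT16 were 0.43 and 0.31, not called. Clock at DRF ZT0 with NRF ZT12 was called with a length correction (0.60), with a filter on a mean of at least 1 (0.51) and with DRF ZT24 (1.22). The cause was not tested.

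Same-numbered livers of the regimens did not deviate together (correlations from -0.147 to 0.0861), so numbers do not pair them. The replicate block changed 1 call, the 12-h component of Clock under NRF (0.77). Leaving out 1 liver each, some values crossed the threshold. The 12-h component ranged from 0.57 to 0.75 for Arntl under DRF and from 0.70 to 0.88 for Clock under NRF. Clock ranged from 0.18 to 0.50 at ZT8, from 0.41 to 0.62 at DRF ZT0 with NRF ZT12 and from 0.60 to 0.81 for ZT24 minus ZT0 under DRF, where Arntl ranged from 0.54 to 0.67. Npas2 ranged from -1.11 to -0.70 at DRF ZT12 with NRF ZT24 and from -0.90 to -0.61 at DRF ZT16 with NRF ZT4.

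Over all genes, the deposited values gave 518 and 41 calls of a 12-h component under DRF and NRF (1592 and 173 with scaled counts), 283 and 148 at DRF ZT0 with NRF ZT12 and DRF ZT12 with NRF ZT24 (603 and 341), and 1605 and 5605 for ZT24 minus ZT0 under DRF and NRF (749 and 1887, the latter 1239 with a length correction). The regimen difference of ZT24 minus ZT0 had 1 call by limma, and 0 with a length correction or the filter, where 1392 and 828 genes had an unadjusted p under 0.05. Depth limits Npas2 most, at 5 to 52 recovered counts in NRF livers of ZT12.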
